A study of Mus musculus with 16 samples.

Results

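The effect of floxed Men1 alleles on the transcriptome of the injured mouse pancreas was measured across both states of Daxx. All 16 libraries of the series entered the comparison: 8 came from animals with floxed Men1 (the MC and DMC groups) and 8 from animals with intact Men1 (the WT and DC groups), with Daxx state as the second factor. Of 15156 genes in the table, 14220 reached 10 normalized counts in at least 4 libraries and were tested. Of these, 8029 differed in the same direction in MC minus WT and in DMC minus DC (3848 higher, 27.1%, and 4181 lower, 29.4%), and 427 passed the test of the Men1 effect (limma adjusted p under 0.05, here "called").

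The WT animals were wild type and their label names no Cre. DC animals were Daxx fl/fl with a Pdx1-Cre transgene, MC animals were Men1 fl/fl with Pdx1-Cre, and DMC animals carried both floxed genes with Pdx1-Cre. There were 4 animals in each group, and the series describes them as independent biological replicates. Every animal had been given caerulein, a peptide that acts on the cholecystokinin receptor, drives acinar cells to excess secretion and injures the pancreas, at 50 ug/kg per dose, in 4 doses an hour apart, on 3 days of each of 3 weeks, starting at an age of 6 to 10 weeks, and tissue was taken 5 days after treatment ended. Pdx1-Cre acts in the epithelium that forms the acinar, ductal and islet cells, so stromal, vascular and immune cells of the same tissue keep intact alleles. MC and WT differ in the transgene as well as in Men1, and the 2 cannot be told apart there, whereas DMC and DC all carry Pdx1-Cre.

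Men1 encodes menin, a scaffold protein that joins the MLL histone methyltransferases to chromatin and also binds transcription factors such as JunD. Loss of menin in people and mice gives tumours of endocrine tissue, among them the pancreatic islets, the parathyroid and the pituitary. Daxx encodes a chaperone that places the histone variant H3.3 in chromatin together with Atrx, and both MEN1 and DAXX are recurrently mutated in human pancreatic neuroendocrine tumours.

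Each library held 13481063 to 23728309 recovered reads, and its 10 most abundant genes made up 33.5% to 51.8% of these. The defining enzymes of acinar cells were present in both states, with a mean of 1682950 normalized counts of the chymotrypsinogen gene Ctrb1 in intact and 1454760 in floxed libraries. Libraries differed within groups in the transcripts of other cells. The mean log2 level of B and plasma cell genes ran from 4.61 to 8.92 in WT and from 4.39 to 7.73 in DMC. A clock gene level (the mean log2 level of Nr1d1, Nr1d2, Dbp, Tef and Per3 minus that of Arntl, Npas2 and Nfil3) ran from 2.13 to 3.59 in DC and from -0.79 to -0.18 in MC. The hour of collection is not given in the sources used here. Y-linked genes were high in 2 libraries each of WT, MC and DMC, but in 1 of DC, replicate 1. With their mean log2 level as a covariate 375 genes were called for the Men1 effect, against 427 without it.

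Men1 itself fell in every animal that carried its floxed alleles. Men1 (ENSMUSG00000024947.16, chromosome 19, 6334979 to 6340891, GRCm38) had 331, 345, 459 and 336 normalized counts in WT and 397, 481, 508 and 541 in DC. It had 127, 116, 136 and 147 in MC and 157, 175, 161 and 178 in DMC. The 8 floxed libraries therefore lay below all 8 intact ones, at 35.8% of WT in MC and 34.8% of DC in DMC. The log2 difference was -1.49 ± 0.09 (SE, limma adjusted p = 1.46e-07), and an exact permutation test of Men1 state within each Daxx state gave p = 0.000408, two-sided, the smallest that 4900 assignments allow. A residual level is left in whole tissue, which also holds cells without Cre, and the source of that level was not tested. Fewer cells of a type and less RNA per cell cannot be told apart in bulk samples. Daxx was not called by Men1 state (log2 difference -0.19, limma adjusted p = 0.464, exact permutation p = 0.123, two-sided). It was not called by Daxx state either (log2 difference -0.32, limma adjusted p = 0.426), where WT libraries had between 195 and 346 normalized counts and DC libraries between 212 and 245, and MC had between 223 and 281 against 160 to 225 for DMC. The level of Daxx thus does not separate the libraries labelled with floxed Daxx from the others.

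**Figure D1:**
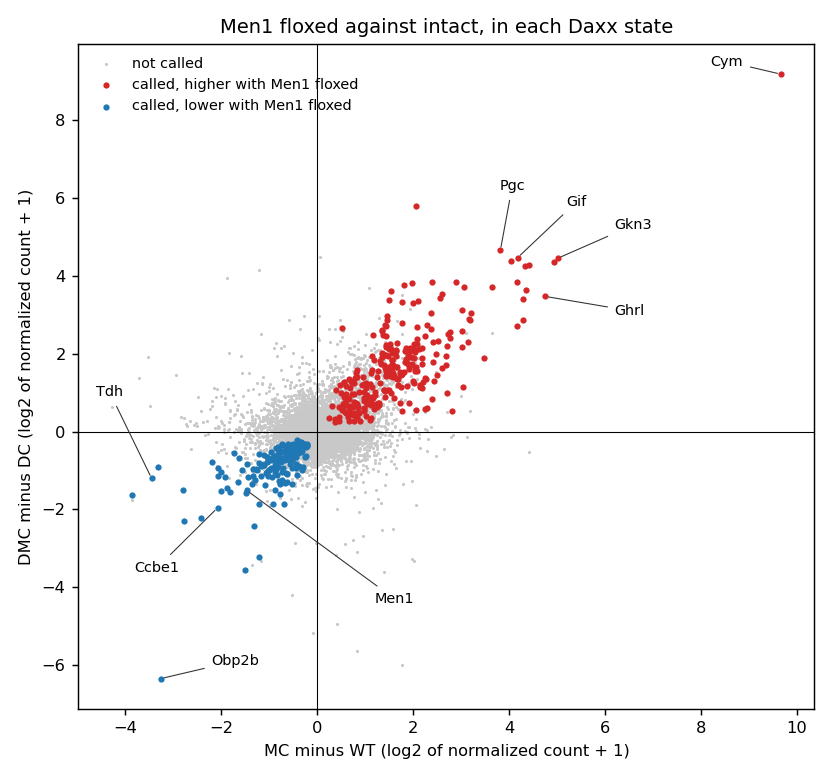
Each point is a gene of 14220 tested, with its log2 difference between MC and WT on the x axis and between DMC and DC on the y axis, and the genes called for the Men1 effect are coloured. The called genes lie at the upper right and the lower left, Cym is farthest to the upper right (9.67 and 9.18) and Obp2b is lowest (-3.25 and -6.35).

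Of the 14220 genes tested, 427 were called for the Men1 effect (3.00%), of which 266 rose (1.87%) and 161 fell (1.13%). All 427 had the same direction in MC minus WT and in DMC minus DC, against 56.5% of all genes tested, although the Men1 effect is the mean of those 2 contrasts and this agreement is in part built in. The contrasts share no library, which gives a direct comparison. MC minus WT called 111 genes (0.781%), 69 higher (0.485%) and 42 lower (0.295%), and DMC minus DC called 76 (0.534%), 38 in each direction (0.267%). Of the 111, 97 (87.4%) had the same direction in DMC minus DC, and of the 76, 71 (93.4%) had the same direction in MC minus WT. Combining both states called 307 genes that neither contrast called by itself, and 28 genes were called in both.

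The rises were larger than the falls, and their genes were less abundant. The 266 genes that rose had a median log2 difference of 1.60 (0.30 to 9.42), and 199 rose at least 2-fold (1.40% of genes tested). The 161 that fell had a median of -0.77 (-4.80 to -0.26), and 49 fell at least 2-fold (0.345%). The median mean level was 53.5 normalized counts for the first set and 314 for the second, against 227 over all genes tested. In 88 genes (0.619% of those tested) the 8 floxed and 8 intact libraries did not overlap, 59 of them higher with floxed Men1 (0.415%) and 29 lower (0.204%). MC and WT did not overlap in 1050 genes (7.38%) and DMC and DC in 903 (6.35%), and 156 (1.10%) did so in both with the same direction. At the edge of the threshold Acox2 lay just inside (log2 difference 1.67, limma adjusted p = 0.0499) and Zfp882 just outside (-0.58, 0.0501).

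The number of calls depended on which libraries entered, and it was 259 without DC replicate 2 and 799 without DC replicate 1. Without DMC replicate 4 it was 261 and without DC replicate 4 it was 270. Without DMC replicates 2 and 4, in which gastric genes were high, it was 206. With the clock gene level as a covariate 76 genes were called, 70 of them among the 427. That level had a median of -0.31 in floxed and 2.20 in intact libraries, and it holds Nr1d2, a called gene. By group its median was 0.53 in WT and 0.58 in DMC, but 3.07 in DC and -0.44 in MC. Whether it takes up part of the Men1 difference as a covariate was not tested. These last 2 alternatives were chosen after seeing the data. The 427 kept their direction under every alternative in which they were tested, which was 282 of them where a mean of at least 50 counts was required and all of them elsewhere.

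No gene was called for an interaction of the Men1 effect with Daxx state by limma (smallest adjusted p 0.0817) or by edgeR on recovered reads. At an unadjusted p under 0.05, 1156 genes passed in limma, and DESeq2 on recovered reads called 43. Failing the threshold does not show that the Men1 effect is the same in both states. Over the 427 called genes the interaction difference had a median of -0.02 and ran from -3.09 to 3.73. The Daxx effect itself called 8 genes (0.0563%), all higher with floxed Daxx, and 2 of these, Bglap3 and Pcdh11x, were also called for Men1.

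Many genes of gastric gland cells rose, and Cym had the largest rise of all genes tested. Of 13 tested genes of chief and neck cells, 8 rose (against 1.87% of all genes), 0 fell and the median log2 difference was 3.45, against -0.0041 over all genes tested. This list and the others below were chosen with earlier results of these data known, so their counts are descriptive and not independent support. Chief cells secrete pepsinogens and, in the mouse, intrinsic factor, and neck cells secrete the mucin Muc6. The mean log2 level of the list ran from 5.52 to 6.96 in intact libraries and from 8.46 to 10.5 in floxed ones, with the highest values in MC replicate 4 and DMC replicates 2 and 4. The promoters of Cym and Pgc are shown because both genes were higher in all 8 floxed than in all 8 intact libraries and both promoters hold the TATA box letters, and that of Obp2b because this gene had the largest fall. Those of Gkn3 and of Bglap3, 2 other genes that rose, were read as well, hold no TATAAA in the stretch searched and are not printed. Each gives 250 bases before to 50 after the RefSeq start, 5′ to 3′ on the gene's strand (GRCm38.p6), with TATAAA in capitals.

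Cym (chr3:107221683-107221982, minus strand): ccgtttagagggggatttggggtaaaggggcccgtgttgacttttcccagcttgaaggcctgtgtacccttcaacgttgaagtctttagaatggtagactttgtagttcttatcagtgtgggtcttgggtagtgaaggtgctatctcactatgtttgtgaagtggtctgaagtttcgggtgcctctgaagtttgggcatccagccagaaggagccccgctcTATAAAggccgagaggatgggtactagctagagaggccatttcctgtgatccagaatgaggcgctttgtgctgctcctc

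Pgc (chr17:47726592-47726891, plus strand): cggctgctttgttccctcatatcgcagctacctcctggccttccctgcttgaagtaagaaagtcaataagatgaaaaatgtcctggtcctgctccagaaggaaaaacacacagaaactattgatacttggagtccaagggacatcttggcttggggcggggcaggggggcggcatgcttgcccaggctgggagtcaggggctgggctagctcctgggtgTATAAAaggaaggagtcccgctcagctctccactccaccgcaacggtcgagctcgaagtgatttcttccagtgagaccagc

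Obp2b (chr2:25736757-25737056, plus strand): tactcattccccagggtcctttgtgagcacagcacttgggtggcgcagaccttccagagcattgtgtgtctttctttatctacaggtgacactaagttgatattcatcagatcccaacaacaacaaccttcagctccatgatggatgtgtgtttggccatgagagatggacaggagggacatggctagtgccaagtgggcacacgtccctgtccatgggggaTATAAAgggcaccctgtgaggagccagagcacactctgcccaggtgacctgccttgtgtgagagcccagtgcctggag

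The motif began 29 bases before the start in Cym, 31 in Pgc and 28 in Obp2b. Searched as TATAAA on the gene's strand within the 50 bases before the start, it was found in 17 of 197 genes that rose and have a RefSeq promoter (8.63%), in 5 of 131 that fell (3.82%) and in 242 of all 11085 tested genes with one (2.18%). Its reverse complement TTTATA was found in 2.54%, 0.763% and 0.613%. The median number of CG dinucleotides per promoter was 9 in genes that rose and 19 in those that fell, as over all genes. A match describes these letters and is not a measured binding site.

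Cym, the milk-clotting aspartic protease chymosin (chromosome 3, 107211293 to 107221732), was nearly absent from intact libraries. It had 3.54, 0, 0 and 8.78 normalized counts in WT and 1.84, 1.66, 0 and 2.20 in DC, from 10 and 7 reads in all. It had 2089, 768, 1219 and 9856 in MC and 816, 4329, 427 and 1790 in DMC, from 16982 and 9580 reads. No intact library came near any floxed one, and the log2 difference was 9.42 ± 0.61 (SE, limma adjusted p = 1.60e-07).

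Pgc, which encodes pepsinogen C (chromosome 17, 47726842 to 47734482), had 150, 46.1, 96.3 and 143 normalized counts in WT and 181, 160, 228 and 29.7 in DC. It had 1512, 891, 986 and 2970 in MC and 880, 8974, 1002 and 10444 in DMC. The groups did not overlap, and the log2 difference was 4.24 ± 0.56 (SE, limma adjusted p = 0.000586). Gkn3, a gastrokine of the stomach, had a lowest, median and highest level of 13.2, 62.4 and 213 in intact libraries and 546, 1458 and 7697 in floxed ones, a log2 difference of 4.73. Gif, the vitamin B12 carrier intrinsic factor, rose by 4.32, Pga5, a pepsinogen A, by 3.99, Muc6 by 3.84 and Slc9a4, a sodium-proton exchanger of gastric glands, by 3.45. In each of these the 8 floxed libraries lay above the 8 intact ones, as in 0.415% of all genes tested. Naming the largest rises required no overlap in either contrast, so this is in part built in. Lgr5, a receptor for R-spondin that marks stem cells and chief cells, rose from 10.3 to 64.2 mean counts (log2 difference 2.65). It missed the threshold with the clock gene level as a covariate (limma adjusted p = 0.147).

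Of the 13 tested chief and neck genes 12 had a positive difference, but not every member was called. Tff2, a trefoil peptide of neck cells, differed by 0.34 (limma adjusted p = 0.440), and Bhlha15, a secretory transcription factor that acinar cells also express, by -0.47. Of 7 tested genes of gastric pit and parietal cells, 4 rose (against 1.87% of all genes) and none fell, with a median of 1.32. Vsig1, a junction protein of gastric epithelium, rose by 3.69, from a mean of 2.36 to 48.3 normalized counts. Anxa10 rose by 1.55 and Slc26a9, a chloride transporter, by 1.32, and both missed the threshold with the clock gene level as a covariate (limma adjusted p = 0.0863 and 0.0667). Atp4a, the catalytic subunit of the proton pump of parietal cells, rose by 1.98, and it missed the threshold without any of 7 single libraries (WT replicate 3, DC replicates 2 and 4, MC replicates 3 and 4, DMC replicates 2 and 4, limma adjusted p 0.0555 to 0.0672). The pit and parietal genes Gkn1, Gkn2, Muc5ac, Tff1 and Atp4b were not analysed here, and neither were Lipf and Chia1 of chief cells. Of 4 tested genes of intestinal epithelium none was called, against 3.00% of all genes. Of 9 tested genes of gut smooth muscle none was called either, with a median of 0.26. The part of gastric tissue beside the pancreas in these results was not tested.

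**Figure D2:**
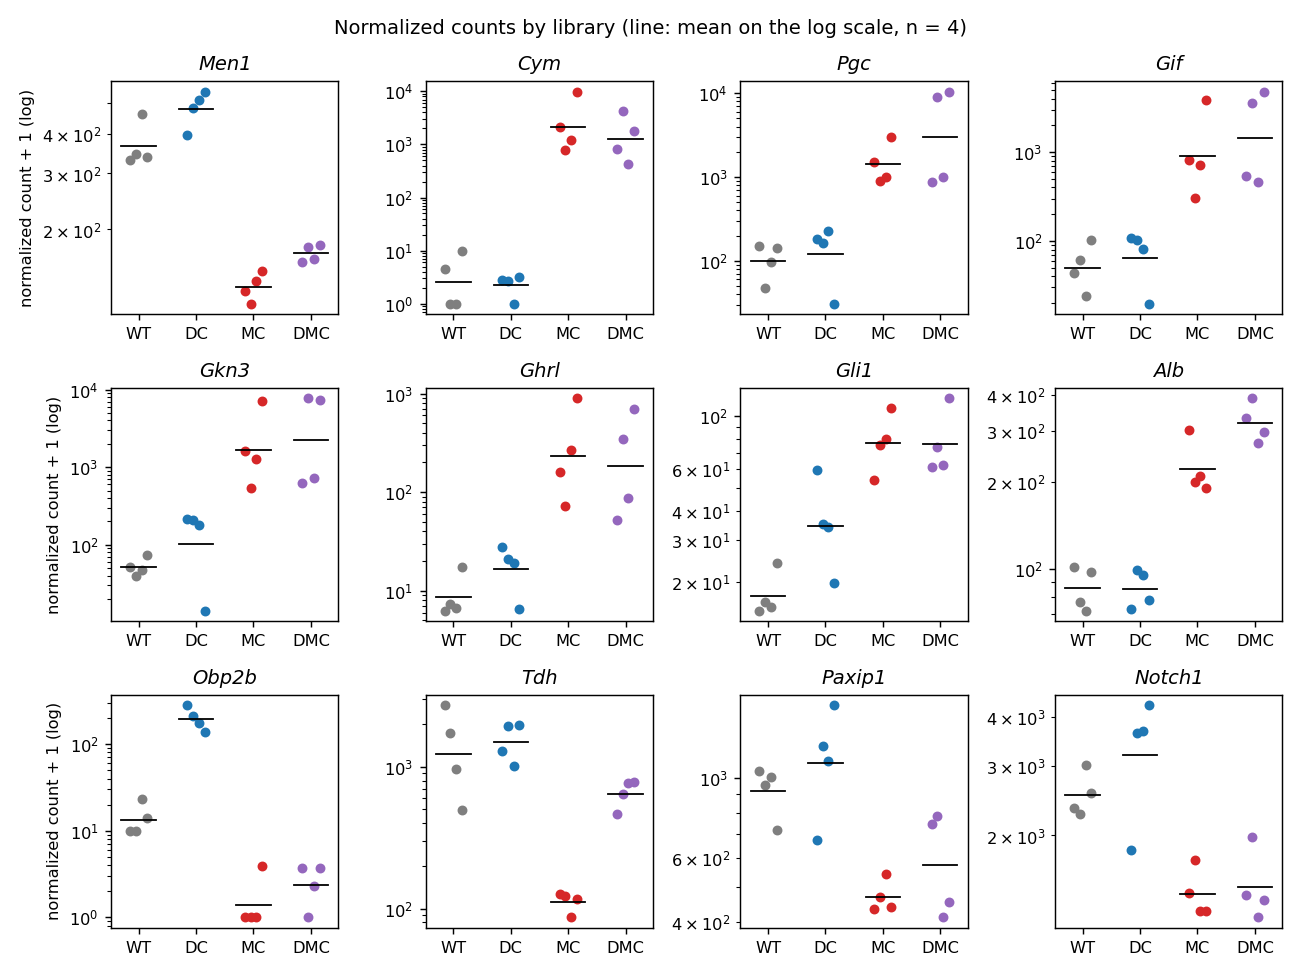
Normalized counts plus 1 on a log axis for 12 genes, with a point for each library and a line at the mean of the log values in each group of 4. The Men1, Cym, Pgc, Gif, Gkn3, Ghrl, Alb and Obp2b panels have no overlap between WT and DC on the left and MC and DMC on the right. Obp2b is also higher in DC than in WT and low in both floxed groups.

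Most genes of endocrine cells were higher with floxed Men1, and the calls of several islet genes, though not of Ghrl, depended on which libraries entered. Ghrl, the hormone ghrelin of islet epsilon cells and gastric endocrine cells (chromosome 6, 113716119 to 113719880), had 5.30, 6.33, 5.71 and 16.5 normalized counts in WT and 26.9, 19.9, 18.2 and 5.50 in DC. It had 161, 71.4, 269 and 892 in MC and 51.0, 345, 86.2 and 704 in DMC. No intact library reached the lowest floxed one, and the log2 difference was 4.11 ± 0.58 (SE, limma adjusted p = 0.000834). Of the 8 islet hormones tested Ghrl was the only one called. The 2 insulin genes differed by 1.35 for Ins1 and 1.18 for Ins2 (limma adjusted p = 0.144 and 0.188), the glucagon gene Gcg by 0.12 (0.952) and the pancreatic polypeptide gene Ppy by -0.78 (0.611).

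Of 31 other tested islet endocrine genes, 30 had a positive difference, 8 were called higher (against 1.87% of all genes) and 0 lower. Their median was 1.21, against -0.0041 over all genes. The called members were Scg2 and Pcsk1 of the secretory granule, Ptprn and Ptprn2, Scgn, the hormone Ucn3, the transcription factor Pax6 and the vesicle protein Syt7. Scg2 (secretogranin II) had 847, 1875, 297 and 1231 normalized counts in WT, 3025, 639, 521 and 422 in DC, 1691, 2538, 6517 and 6873 in MC and 4258, 5127, 2846 and 11470 in DMC, a log2 difference of 2.38 (limma adjusted p = 0.00903). Intact and floxed libraries overlapped, as DC replicate 1 and WT replicate 2 lay above the lowest floxed library. The mean log2 level of the list was 8.34 in DC replicate 1, against 5.96 to 7.57 in the other intact ones, and it was 6.88 to 9.41 in the floxed ones. Without DMC replicates 2 and 4 a single member was called and the median was 0.89, and with the clock gene level as a covariate none was called and the median was 0.95.

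Scgn, a calcium sensor, rose by 2.12, Ptprn, a granule membrane protein, by 1.95 and Ucn3, a peptide of mature beta cells, by 1.97. Ucn3 missed the threshold without any of 9 single libraries (limma adjusted p 0.0518 to 0.0706). Th, tyrosine hydroxylase, which makes catecholamines and is also found in islets, rose from a mean of 11.8 to 65.9 counts (log2 difference 2.36), but not past the threshold with the clock gene level as a covariate (limma adjusted p = 0.0617). Among 12 tested genes of neurons and glia, several shared with endocrine cells, 4 rose (against 1.87% of all genes) and 0 fell (median 0.55). They were Tubb3 (2.07), Snap25 (1.57), Elavl4 (1.45) and Uchl1 (1.36). None of the 4 was called without DMC replicates 2 and 4 or with the clock gene level as a covariate. Snap25, Elavl4 and Uchl1 each missed the threshold without any of 7 or 8 single libraries (limma adjusted p 0.0504 to 0.0804).

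**Figure D3:**
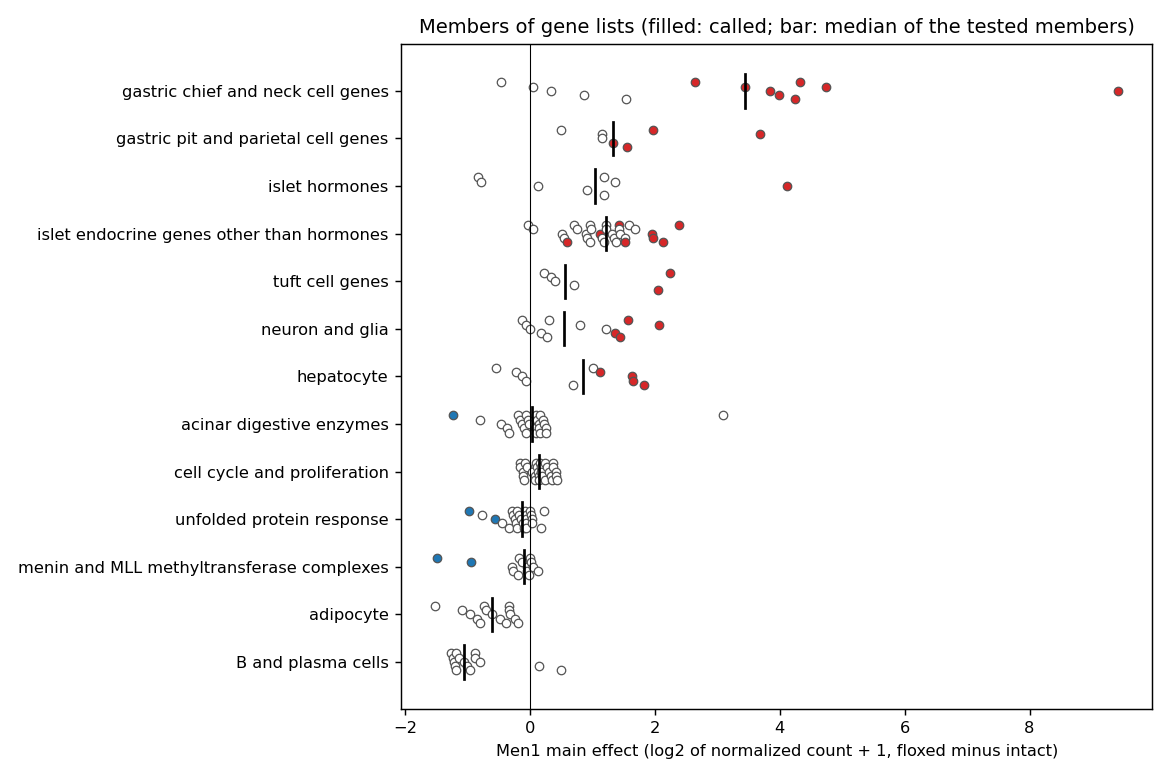
Log2 difference by Men1 state of each tested member of 13 gene lists, with called members filled and the list median as a bar. The gastric chief and neck genes spread from -0.47 to 9.42 with a median of 3.45, and the islet endocrine genes cluster around 1.21.

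Tuft cells are chemosensory epithelial cells that appear in injured pancreas. Of 6 tested tuft cell genes, 2 were called higher (against 1.87% of all genes), Trpm5, a taste-transduction channel (2.23), and Avil, a cytoskeletal protein (2.04), with a list median of 0.55. Avil had 9.88 to 28 normalized counts in WT and 8.80 to 26.2 in DC, and 39.7 to 223 in MC and 37.9 to 144 in DMC, with no overlap by Men1 state. Trpm5 overlapped, with 115 in DC replicate 1, and missed the threshold without DMC replicates 2 and 4 (limma adjusted p = 0.107) and with the clock gene level as a covariate (0.285). Dclk1, a kinase that marks tuft cells, differed by 0.70 (0.286).

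Of 10 tested genes of hepatocytes, 4 rose (against 1.87% of all genes), 0 fell and 6 had a positive difference, with a median of 0.84. Alb, which encodes serum albumin (chromosome 5, 90460897 to 90476602), had 101, 75.9, 71 and 96.6 normalized counts in WT and 71.6, 98.7, 94.6 and 77 in DC. It had 301, 198, 208 and 190 in MC and 332, 388, 272 and 297 in DMC, a log2 difference of 1.63 ± 0.14 (SE, limma adjusted p = 9.39e-06). Groups did not overlap by Men1 state, and the same held for F2, which encodes prothrombin (log2 difference 1.65, limma adjusted p = 0.000281). Ahsg, a plasma glycoprotein, rose by 1.83, and missed the threshold without DMC replicates 2 and 4 (limma adjusted p = 0.0542) and with the clock gene level as a covariate (0.0506). Apoa2, an apolipoprotein with 3.29 to 6.33 counts in intact libraries, rose by 1.11, but missed the threshold without any of 9 single libraries (limma adjusted p 0.0515 to 0.079). Ttr, which islets also express, differed by 0.68 (limma adjusted p = 0.0857).

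Among other genes with the largest rises were Serpina7, the thyroxine-binding globulin (3.12), Olfm4, a marker of crypt stem cells (3.02), and Cdhr1, a cadherin of photoreceptors (2.70). Bglap3, of the osteocalcin family (chromosome 3, 88368616 to 88372743), rose by 2.62 with Men1 state, with 99, 53.3, 62.8 and 37.3 counts in WT, then 326, 731, 338 and 620 in DC. MC had 619, 214, 359 and 546 and DMC had 1770, 2010, 4394 and 3289. It lay higher with both floxed genes, so that MC and DC overlapped while DMC lay above every other library. Near-identical copies of Bglap3 could share its reads, so its counts are uncertain. Without the Daxx term it missed the threshold (limma adjusted p = 0.0622).

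The Hedgehog target Gli1 and the Wnt pathway genes Lgr5 and Notum rose. Hedgehog ligands bind the receptor Ptch1 and release Smo, which lets Gli proteins act, and Gli1 is itself a target of the pathway. Gli1 had 14.1 to 58.1 normalized counts in intact libraries and 52.7 to 118 in floxed ones (log2 difference 1.64), and the states overlapped through DC replicate 1. Ptch1 differed by 0.40 (limma adjusted p = 0.0958). Gli1 missed the threshold with the clock gene level as a covariate (limma adjusted p = 0.0507). Of 21 tested Wnt genes, Lgr5 and Notum, a secreted Wnt deacylase (1.33), rose (against 1.87% of all genes), 0 fell and the median was 0.37. Notum was not called with the clock gene level as a covariate (log2 difference 0.88, limma adjusted p = 0.290). Axin2, a feedback target, differed by 0.45 (limma adjusted p = 0.200).

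Obp2b had the largest fall. This odorant-binding protein gene (chromosome 2, 25737009 to 25740097) had 8.84, 9.04, 22 and 13.2 normalized counts in WT and 280, 207, 175 and 135 in DC. It had 0, 0, 0 and 2.90 in MC and 2.73, 0, 1.31 and 2.74 in DMC, from 4 and 7 reads, so floxed libraries lay below intact ones in both Daxx states. The log2 difference was -4.80 ± 0.53 (SE, limma adjusted p = 0.000184), with -3.25 in MC minus WT and -6.35 in DMC minus DC, and the interaction was not called (limma adjusted p = 0.335). A 0 allows up to 3 reads, or between 1.84 and 5.30 normalized counts across libraries.

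Tdh, threonine dehydrogenase of threonine breakdown, had 2714, 1716, 959 and 495 normalized counts in WT, 1295, 1926, 1019 and 1955 in DC, 125, 122, 85.9 and 116 in MC and 464, 637, 763 and 774 in DMC. MC lay below WT with no overlap, and so did DMC below DC, but WT replicate 4 at 495 lay within the DMC range. The Men1 log2 difference was -2.33 ± 0.38 (SE, limma adjusted p = 0.00294). Of 22 tested threonine, serine and glycine genes, Tdh fell (against 1.13% of all genes) and Amt, of the glycine cleavage system, rose by 0.72 (against 1.87%). Amt missed the threshold without any of 7 single libraries (limma adjusted p 0.0525 to 0.0672).

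The other genes with the largest falls belonged to varied families. Nat8, an acetyltransferase, fell by 2.16, Ccbe1, which acts in lymphatic growth, by 2.02, Thbs4, a thrombospondin of the matrix, by 1.87, Zc3h12b by 1.60, the tight junction gene Cldn6 by 1.53 and Rftn2, a lipid raft protein, by 1.47. Gfra1, the receptor of GDNF, fell by 1.28, Pde8b, a phosphodiesterase, by 1.27 and Slc28a3, a nucleoside transporter, by 1.19. Floxed and intact libraries did not overlap in Nat8, Ccbe1, Thbs4, Zc3h12b, Cldn6, Rftn2, Gfra1 and Slc28a3. This is in part built in, as genes were named here only if neither contrast overlapped. Over all genes tested 0.204% were lower without overlap. Thbs4 was the only one of 35 matrix genes tested that was called, against 3.00% of all genes. It missed the threshold with the clock gene level as a covariate (limma adjusted p = 0.155).

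Within the menin complexes 2 of 14 tested genes fell (against 1.13% of all genes) and none rose, with a median of -0.10. They were Men1, the floxed gene itself, and Paxip1, which encodes the PTIP subunit of the MLL3 and MLL4 complexes. Paxip1 had 1040, 955, 1001 and 717 normalized counts in WT, 675, 1223, 1111 and 1582 in DC, 435, 467, 542 and 440 in MC and 746, 785, 411 and 454 in DMC, a log2 difference of -0.95 (limma adjusted p = 0.00426). MC lay below WT, whereas DMC and DC overlapped, and with the clock gene level as a covariate the adjusted p was 0.139. Kmt2a, the methyltransferase MLL1, differed by -0.20 (limma adjusted p = 0.559). Of 10 tested genes reported as menin targets, Pbx3, a homeobox cofactor, fell by 0.79, whereas the cell cycle inhibitors Cdkn1b and Cdkn2c differed by -0.03 and -0.35 (limma adjusted p = 0.897 and 0.182). None of 9 Hox genes tested was called, against 3.00% of all genes. None of 10 genes of Daxx, Atrx and other H3.3 chaperones was called, nor was any of 30 cell cycle genes, whose median was 0.15 and of which Mki67 differed by 0.14 (limma adjusted p = 0.801).

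Acinar, ductal and stress lists had 0 to 2 called members each, where 1.87% of all genes tested rose and 1.13% fell. In lists this short 1 call already lies above those shares, so the called genes are given singly. Of 26 tested digestive enzymes only Ctrl, a chymotrypsin-like protease, was called, at -1.23, and it missed the threshold without DC replicate 2 or DC replicate 4 (limma adjusted p 0.0551 to 0.0554). Ctrc differed by 3.09 but was not called (limma adjusted p = 0.0659). The acinar transcription factors had 0 of 14 called. Of 20 ductal and metaplasia genes 18 were positive and Prom1, a stem cell and duct marker, rose by 1.16, but not past the threshold without DMC replicates 2 and 4 (limma adjusted p = 0.0888). Of 6 Reg family genes Reg2 rose by 2.13, but it missed the threshold without any of 10 single libraries (limma adjusted p 0.0511 to 0.0686). Of 26 genes of the unfolded protein response 2 fell, Herpud1 by 0.98 and Ern1, the stress sensor IRE1, by 0.57, and both missed the threshold with the clock gene level as a covariate (limma adjusted p = 0.172 and 0.156). Of 20 ketone body and fatty acid oxidation genes Bdh2 and Eci3 fell, by 2.22 and 1.31, and both missed the threshold with the clock gene level as a covariate (limma adjusted p = 0.390 and 0.0846). Bdh2 missed it also without DMC replicates 2 and 4 (limma adjusted p = 0.0865) and without the Daxx term (0.0546). WT and MC overlapped in Bdh2, with 18.99 to 339 normalized counts in WT and 15.9 to 28.3 in MC. Its libraries were apart only with floxed Daxx, at 247 to 443 in DC and 22.8 to 48.4 in DMC.

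Of 4 other lists 1 to 3 members each were called, against 3.00% of all genes, and these genes are given singly. Mest and Peg3, paternally expressed imprinted genes, rose by 1.23 and 1.26 and Sgce fell by 0.57, of 21 tested. Notch1 fell by 0.98, of 19 Notch genes tested. Of 18 p53 targets Sesn1 fell by 1.15 and Ddit4l rose by 0.99. Of 17 clock genes Per1 and Nr1d2 fell by 0.99 and 1.08, and the clock gene level of MC lay below that of every DC library. Nr1d2 missed the threshold without any of 5 single libraries (limma adjusted p 0.0525 to 0.0592). Apart from Mest, each of these genes missed the threshold with the clock gene level as a covariate, which itself holds Nr1d2 (limma adjusted p 0.0738 to 0.458).

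Lists of other tissue compartments had no called member, against 3.00% of all genes tested. The genes tested were 21 of fibroblasts and stellate cells, 9 of gut smooth muscle, 3 of skeletal muscle, 15 of endothelium and 10 of mesothelium. A further 15 were of adipocytes, 18 of macrophages, 8 of neutrophils, 15 of B and plasma cells and 18 of T and NK cells. With so few genes tested per list, the absence of calls lies near that share. The median was -1.06 over genes of B and plasma cells, with -2.12 in MC minus WT, 0.22 in DMC minus DC and 4 of 15 genes of the same direction in both. It was -0.62 over adipocyte genes, with 0 of 15 adipocyte genes positive. Adipocyte levels ran from 6.88 to 8.45 in intact libraries and from 5.86 to 9.02 in floxed ones. The part of these cells in the Men1 calls was not tested.

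**Figure D4:**
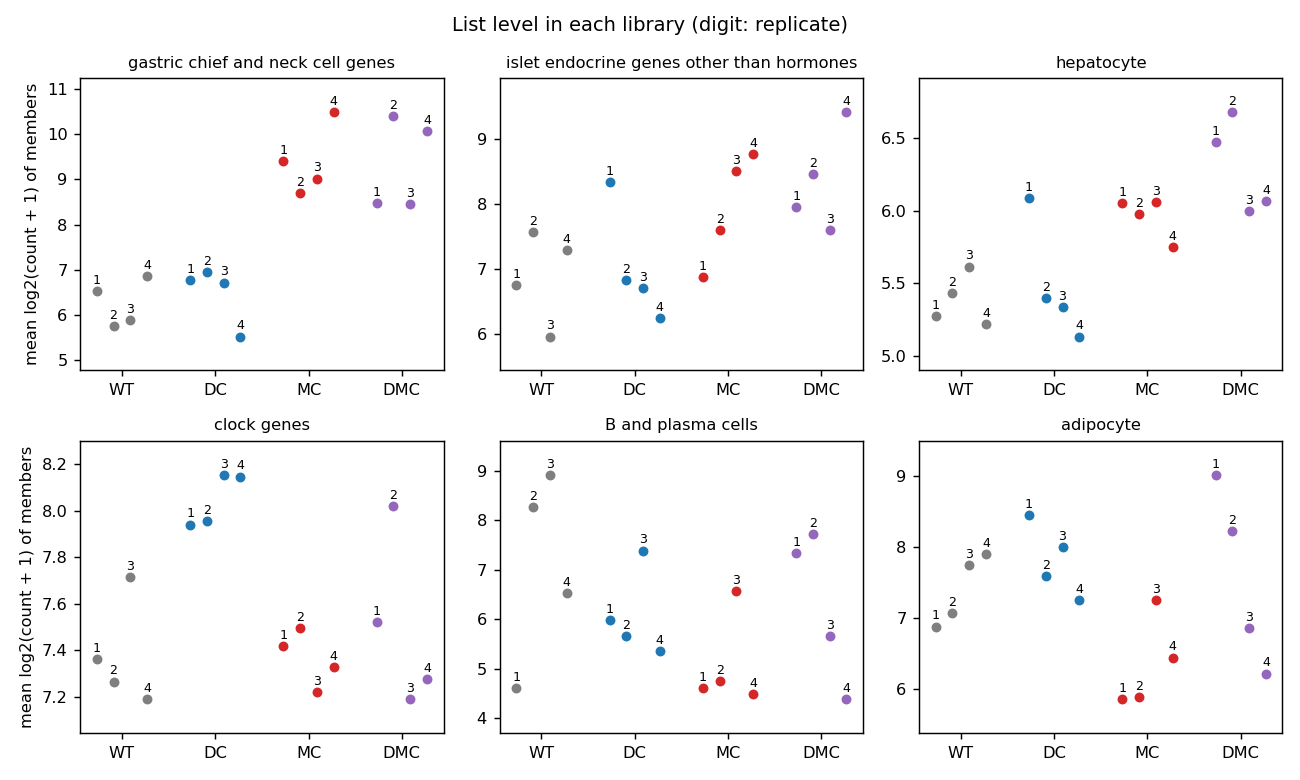
Mean log2 level of 6 gene lists in each library, with the replicate number beside each point. Gastric levels separate floxed from intact libraries, and islet endocrine levels overlap and are highest among intact libraries in DC replicate 1 (8.34). Clock gene levels have their highest group median in DC (8.05), and DMC replicate 2 (8.02) lies within the DC range.

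The neighbourhood of Men1 was examined because floxed alleles carry linked sequence with them. Within 5 Mb of Men1, 207 genes were tested, and 3 rose and 1 fell (1.93%, against 3.00% over all genes and 4.27% over chromosome 19). They were Gstp3, Syt7 and Pga5, which rose, and Asrgl1, which fell.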

How the data were processed

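RNA of whole pancreas from 16 mice was sequenced as stranded TruSeq libraries, per the labels' protocols. Per the submitters' processing notes STAR 2.6.0b and DESeq2 were used with GRCm38. The read counter and the annotation release are not given here by any source used. Each deposited signal value is a normalized count: the authors scaled gene counts with library size factors. Dividing each library by its smallest step gave whole reads within 0.01 for every value. A 0 allows up to 3 reads, counting error only. Chi-square per degree of freedom within groups was 9.04 to 137.9, so no library repeated another of its group.

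Genes with at least 10 normalized counts in at least 4 libraries were fitted as log2 of the count plus 1 with limma 3.58.1 (trend) in R 4.3.3, with Men1 and Daxx state as terms and Benjamini-Hochberg adjustment over all 14220 genes. A fold change on this scale understates the change of low genes. Contrasts within each Daxx state and the interaction came from a fit with a coefficient per genotype. The transcript levels of Men1 and Daxx also had an exact permutation test.

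The members and the 40 gene lists were chosen with earlier results of these data known. Named were Men1, Daxx, the 12 largest rises and falls among called genes with a mean of at least 50 counts and no overlap in both contrasts, the 4 called genes with the smallest interaction p, and up to 4 called members per list. A result that this rule names is not reported here. Genes said to be chosen after their values were seen fall outside this rule, as do other list members given as values, the genes at the edge of the threshold and those near Men1. Coordinates came from GENCODE mouse release 21 on GRCm38, promoters from RefSeq on GRCm38.p6. On simulated counts for the Men1 effect over 14097 genes, 88% of 2-fold and 100% of 4-fold changes were recovered by limma, and 3.6% of its 195 calls were false. Genes were simulated as independent, with changes placed only above a minimum mean level, so these rates need not hold in the real libraries. Alternatives covered the pseudocount, filter, scaling, weights, model terms, covariates, a replicate block, left-out libraries, and edgeR 4.0.16 and DESeq2 1.42.0 on recovered reads.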

Additional observations from a re-analysis of the deposited data

Results flagged for a closer look

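Within each group of 4 animals, a library was singled out where its gap to the nearest other library relative to the group's range exceeded Dixon's 95% critical value. Over 89 genes and 356 groups this picked 23, and chance alone picks about 1 in 20. Values are normalized counts.

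Among gastric and endocrine genes, DC replicate 4 was low for Gkn3 at 13.2 and Gif at 18.7, and DC replicate 3 had Cym at 0. MC replicate 4 was high for Slc9a4 at 317, Vsig1 at 100.1 and Slc26a9 at 257. WT replicate 4 was high for Ghrl at 16.5, Gli1 at 23.1 and Esp34 at 2.20, and DC replicate 1 for Sh2d7 at 5.51. MC replicate 4 also had Obp2b at 2.90, Ctrl at 92723 and Klf15 at 1200.

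WT replicate 3 was high for Men1 at 459 and Sftpd at 62.8, and low for Prom1 at 475, Reg2 at 2222 and Ddit4l at 17.9. WT replicate 2 was high for Tubb3 at 28.0 and low for Mest at 140.1. DMC replicate 3 was low for Zc3h12b at 28.7 and Sgce at 131, and high for F2 at 248.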

How the results depend on the processing

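The 427 calls (266 higher, 161 lower) became 244 (121 higher) for means of at least 50 counts, 1108 (661 and 447) with library quality weights, 784 (456 and 328) with DESeq2, 76 (50 and 26) with the clock gene level and 206 (120 and 86) without DMC replicates 2 and 4. Leaving out single libraries gave 259 to 799 (164 to 494 higher, 89 to 305 lower). MC minus WT, with 111 calls, gave 63 with the mean filter, 391 with DESeq2, 44 with the clock level and 38 to 189 without single libraries. DMC minus DC, with 76, gave 598 with quality weights, 345 with DESeq2, 142 with the lymphoid level, 7 with the clock level, 117 without WT replicates 2 and 3, 14 without DMC replicates 2 and 4, and 14 to 188 without single libraries. The interaction, with 0 calls, gave 2 with a pseudocount of 4, 1 with quality weights, 43 with DESeq2, 1 with the Y-linked level, 5 without WT replicates 2 and 3 and 0 to 8 without single libraries. The causes were not tested.

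With the replicate number as a block, the counts were 277 for Men1 (99 lower), 46 for MC minus WT and 37 for DMC minus DC. Of 24 same-numbered pairs 11 correlated above 0.1 (-0.371 to 0.384), and 1 library correlated best with its own number. These correlations show no steady pairing by number but cannot exclude one. The mean log2 level of Y-linked genes was 9.27 to 9.55 in replicate 1 of the groups and 0 to 0.47 in replicate 4.

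Of 82 named called genes, 63 kept their call whichever single library was left out, 32 kept it under every alternative that gave a value, and none changed direction. The Daxx difference changed sign with the clock level, from -0.19 to 0.028, and that of Ccnd2 to -0.090, neither called. The clock covariate and the set without DMC replicates 2 and 4 were chosen after seeing the data. Genes with few reads, Cym in intact and Obp2b in floxed libraries among them, have fold changes that depth limits.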

Other observations

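Fkbp5, Zbtb16, Tsc22d3, Klf9 and Klf15, each known to be induced by glucocorticoids, fell with floxed Men1, and no full list of such genes was examined. All genes of this paragraph and the next were chosen after their values were seen. Fkbp5, a cochaperone of the glucocorticoid receptor, ranged over 975 to 2107 normalized counts for WT, 1629 to 4843 for DC, 335 to 788 for MC and 315 to 2756 for DMC (log2 difference -1.68, limma adjusted p = 0.0238). Zbtb16, a zinc finger factor, fell by 1.77, Tsc22d3 by 0.63, Klf15 by 0.59 and Klf9 by 0.51. DMC replicates 1 and 2 lay within the intact range for Fkbp5, at 1890 and 2756. None of the 5 was called with the clock gene level as a covariate, and each but Zbtb16 missed the threshold without at least 4 single libraries (limma adjusted p 0.0503 to 0.102).

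Rises outside the lists included Sh2d7, an adaptor of tuft cells, with 0 to 5.51 counts in intact and 17 to 165 in floxed libraries (log2 difference 4.65, limma adjusted p = 0.000251). A4gnt, which adds the terminal sugar of gastric gland mucin, had 0 to 4.56 and 13.7 to 218 (4.22). Azgp1, a secreted glycoprotein, rose by 2.35 and Serpina5, the protein C inhibitor, by 3.36, both with no overlap. Rgs13 rose by 2.89, but not past the threshold without any of 12 single libraries (limma adjusted p 0.0503 to 0.104). The pheromone peptide genes Esp31 and Esp36 were at 0 in all 8 intact libraries, where up to 3 reads are allowed in each, and ran from 1.45 to 136 and from 0.677 to 174 in floxed ones, with the highest values in DMC replicate 3 and the lowest within what 3 reads allow. Both missed the threshold with the clock gene level as a covariate (limma adjusted p = 0.130 and 0.188). Esp34 rose by 3.07, from 0 to 2.20 counts in intact and 0 to 55.1 in floxed libraries. It missed the threshold without any of 5 single libraries (limma adjusted p 0.0529 to 0.0556) and with the clock gene level as a covariate (0.384). These belong to a cluster of similar genes on chromosome 17, and their counts are uncertain. Of the acetyltransferase genes beside Nat8, Nat8f5 fell by 2.74 and Nat8f2 by 2.11, and reads they share with Nat8 could be split among them. Nat8f2 missed the threshold without any of 11 single libraries (limma adjusted p 0.0502 to 0.0779), and Nat8f5 missed it with the clock gene level as a covariate (limma adjusted p = 0.130).

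Among genes called for the Men1 effect, the 4 with established symbols and the smallest interaction p were Tdh, Obp2b, Sftpd and Gstp3, none called for the interaction. Sftpd, surfactant protein D, differed by 2.07 in MC minus WT and 0.55 in DMC minus DC (limma adjusted p of the interaction 0.390), and Gstp3, a glutathione transferase, by 0.53 and 2.65 (0.390). The Men1 call of Gstp3 was lost without any of 10 single libraries (limma adjusted p 0.0527 to 0.0801).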
